A study of Mus musculus with 8 samples.

Results

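The rod phototransduction genes examined here are Gnat1, Gngt1, Pde6a, Pde6b, Pde6g, Cnga1, Cngb1, Sag and Grk1. They were taken by name, and every probe set that the platform annotation gives to one of these symbols was used, which made 13 of the 45037 probe sets on the array and 9 of 18193 named genes. Gngt1 had 4 probe sets, Pde6g had 2, and the other 7 genes had 1 each. The samples were total RNA from mouse retina dissected free of the retinal pigment epithelium at postnatal day 40, all from the strain labelled BALB/c AJ and housed in a cycle of light and dark. By their labels, 3 arrays were homozygous for an Nxnl1 null allele (ko/ko), 2 were heterozygous for it (ko/wt) and 3 were wild type (wt/wt), and groups are called by these labels throughout. Nxnl1 codes for a thioredoxin-like photoreceptor protein known as rod-derived cone viability factor. Whether arrays of the same genotype stem from different animals is not stated in the labels. The p-values thus reflect only the spread among these samples, which may be technical. For each probe set limma draws this spread toward one shared by all probe sets. Levels are the deposited log2 values, on which a difference of 1 is a 2-fold change, and each probe set has its own scale, so values are compared between arrays and do not rank transcripts by abundance.

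Rods signal light through a cascade in the outer segment. Light-activated visual pigment switches on the heterotrimeric G protein transducin, transducin relieves the inhibition of a cyclic GMP phosphodiesterase, and the fall in cyclic GMP closes a cation channel in the plasma membrane. The response ends when a kinase phosphorylates the pigment and arrestin caps it. Rods are the most numerous cells of the mouse retina, so these transcripts are among the most abundant of the tissue, and in a whole retina fewer rods and less RNA per rod cannot be told apart.

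The targeted gene went against the label on 2 arrays. The brighter Nxnl1 probe set read 6.13, 8.76 and 6.13 in homozygous samples 1 to 3, 8.65 and 6.75 in heterozygous samples 1 and 2, and 9.22, 8.87 and 8.65 in wild-type samples 1 to 3. The array labelled homozygous 2 thus lay within the wild-type range and that labelled heterozygous 2 below it, and values are given with and without this pair. The arrays also differed in RNA quality, as read from the control probe sets at the 5' and 3' ends of beta-actin. Their difference ran from -1.74 to -0.69 on homozygous arrays, from -0.90 to -0.71 on heterozygous arrays and from -1.81 to -0.80 on wild-type arrays. It was lowest on homozygous array 1 and wild-type array 1. The 5 rod markers with a probe set were Gnat1, Pde6b, Cnga1, Sag and the rod transcription factor Nrl. Their mean log2 levels were 13.71 to 13.83 on homozygous arrays, 13.69 to 13.77 on heterozygous arrays and 13.65 to 13.75 on wild-type arrays. All but Nrl are themselves among the genes examined here, so these levels are no separate check of rod identity.

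Transducin was represented by its rod alpha subunit Gnat1, which carries the GTP, and its rod gamma subunit Gngt1. Gnat1 read 14.23, 14.22 and 14.25 on homozygous arrays, 14.19 and 14.23 on heterozygous arrays, and 14.20, 14.25 and 14.24 on wild-type arrays, each in the order of the label numbers. All 8 arrays lay within 0.0675 of each other and the groups overlapped. Homozygous minus wild type came to 0.0064 on the log2 scale (limma SE 0.079), with a 95% interval that corresponds to 0.886-fold to 1.139-fold. Gngt1 at its brightest probe set read 13.16, 12.95 and 13.18 on homozygous arrays, 12.87 and 13.15 on heterozygous arrays, and 13.32, 13.16 and 13.195 on wild-type arrays. Both heterozygous arrays lay below all 3 wild-type arrays, as 7.2% of all probe sets did, while the homozygous arrays overlapped with wild type. The nearest arrays lay close together, heterozygous array 2 at 13.148 and wild-type array 2 at 13.157. The log2 difference was -0.13 (SE 0.11) for homozygous and -0.22 (SE 0.13) for heterozygous against wild type.

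The 4 probe sets of Gngt1 did not move alike. The second in brightness and the third followed the brightest over the 8 arrays, with Pearson correlations with it of 0.834 and 0.963. The dimmest ran against all 3, with correlations of -0.54, -0.80 and -0.63, in order of brightness, which became -0.608, -0.612 and -0.157 without the pair of arrays farthest from the median of the brighter probe set. It read 8.06, 8.46 and 8.43 on homozygous arrays, 8.72 and 8.47 on heterozygous arrays, and 7.95, 8.76 and 8.65 on wild-type arrays. Its lowest values were those of homozygous array 1 and wild-type array 1, and the highest value of the third probe set, 12.72, was on wild-type array 1. Homozygous array 2 and heterozygous array 1 were low at the third probe set, at 12.16 and 11.88, where the other 6 arrays read at least 12.37. For heterozygous against wild type the log2 differences were -0.22, -0.14 and -0.33 at the 3 brighter probe sets and 0.14 at the dimmest, so the sign of this gene depended on the probe set. At the dimmest probe set the 3 homozygous arrays also lay below both heterozygous arrays, as 5.68% of all probe sets did, with a log2 difference of -0.28 (SE 0.24).

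The phosphodiesterase consists of the catalytic subunits Pde6a and Pde6b and the inhibitory subunit Pde6g. Pde6b read 13.64, 13.67 and 13.82 on homozygous arrays, 13.60 and 13.72 on heterozygous arrays, and 13.501, 13.72 and 13.72 on wild-type arrays. Pde6a read 10.75, 10.87 and 11.06 on homozygous arrays, 10.88 and 11.18 on heterozygous arrays, and 10.59, 11.10 and 11.16 on wild-type arrays. In both genes wild-type array 1 was the lowest of the 8 and the groups overlapped. Homozygous minus wild type came to log2 differences of 0.061 (SE 0.10) for Pde6b and -0.063 (SE 0.17) for Pde6a.

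Pde6g at its brighter probe set read 13.82, 13.81 and 13.82 on homozygous arrays, 13.77 and 13.82 on heterozygous arrays, and 13.73, 13.78 and 13.72 on wild-type arrays. Its 3 homozygous arrays all lay above the 3 wild-type arrays, and 2.63% of all probe sets were separated in this direction and 1.84% in the other. The gap between the nearest arrays of the groups was small, and the log2 difference was 0.074 (SE 0.079). Leaving out each array in turn moved it between 0.0617 and 0.092, and without the pair of arrays that went against their label it was 0.0771. At its second probe set it read 13.72, 13.81 and 13.76 on homozygous arrays, 13.74 and 13.81 on heterozygous arrays, and 13.53, 13.75 and 13.76 on wild-type arrays. There the groups overlapped, with a log2 difference of 0.084 (SE 0.096). The separation of homozygous from wild type therefore held at 1 of 2 probe sets.

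The rod channel is built from the subunits Cnga1, which forms the cyclic GMP-gated pore, and Cngb1, which modulates it. Cnga1 read 12.45, 12.43 and 12.65 on homozygous arrays, 12.435 and 12.53 on heterozygous arrays, and 12.36, 12.49 and 12.54 on wild-type arrays. Cngb1 read 11.34, 11.35 and 11.31 on homozygous arrays, 11.32 and 11.46 on heterozygous arrays, and 11.004, 11.35 and 11.27 on wild-type arrays. For both subunits the groups overlapped, and the lowest of the 8 values was that of wild-type array 1. Homozygous minus wild type came to log2 differences of 0.0498 (SE 0.10) for Cnga1 and 0.13 (SE 0.11) for Cngb1. Without wild-type array 1 the Cngb1 difference was 0.0238.

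Shut-off of the response was represented by Sag, the rod arrestin, and Grk1, the pigment kinase that cones of the mouse also use. Sag read 14.48, 14.40 and 14.57 on homozygous arrays, 14.47 and 14.51 on heterozygous arrays, and 14.45, 14.45 and 14.48 on wild-type arrays. The groups overlapped, and both the lowest and the highest value were on homozygous arrays. Homozygous minus wild type gave 0.0225 for Sag on the log2 scale (SE 0.086). Grk1 read 7.46, 8.05 and 7.80 on homozygous arrays, 7.87 and 8.07 on heterozygous arrays, and 7.53, 7.955 and 8.64 on wild-type arrays. It had the widest range among the 13 probe sets, 1.18, and its groups overlapped, with the highest of the 8 values on wild-type array 3. For Grk1, homozygous minus wild type gave a log2 difference of -0.27 (SE 0.27), which became 0.0268 without wild-type array 3 and -0.529 without wild-type array 1. Grk1 and Cngb1 are on chromosome 8, as is Nxnl1, in the mouse annotation of GRCm38. The windows at their starts are chr8:13404831-13405130 and chr8:95306536-95306835. The distance of either to Nxnl1 was not measured, and any part of linkage to Nxnl1 was not tested.

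**Figure D1:**
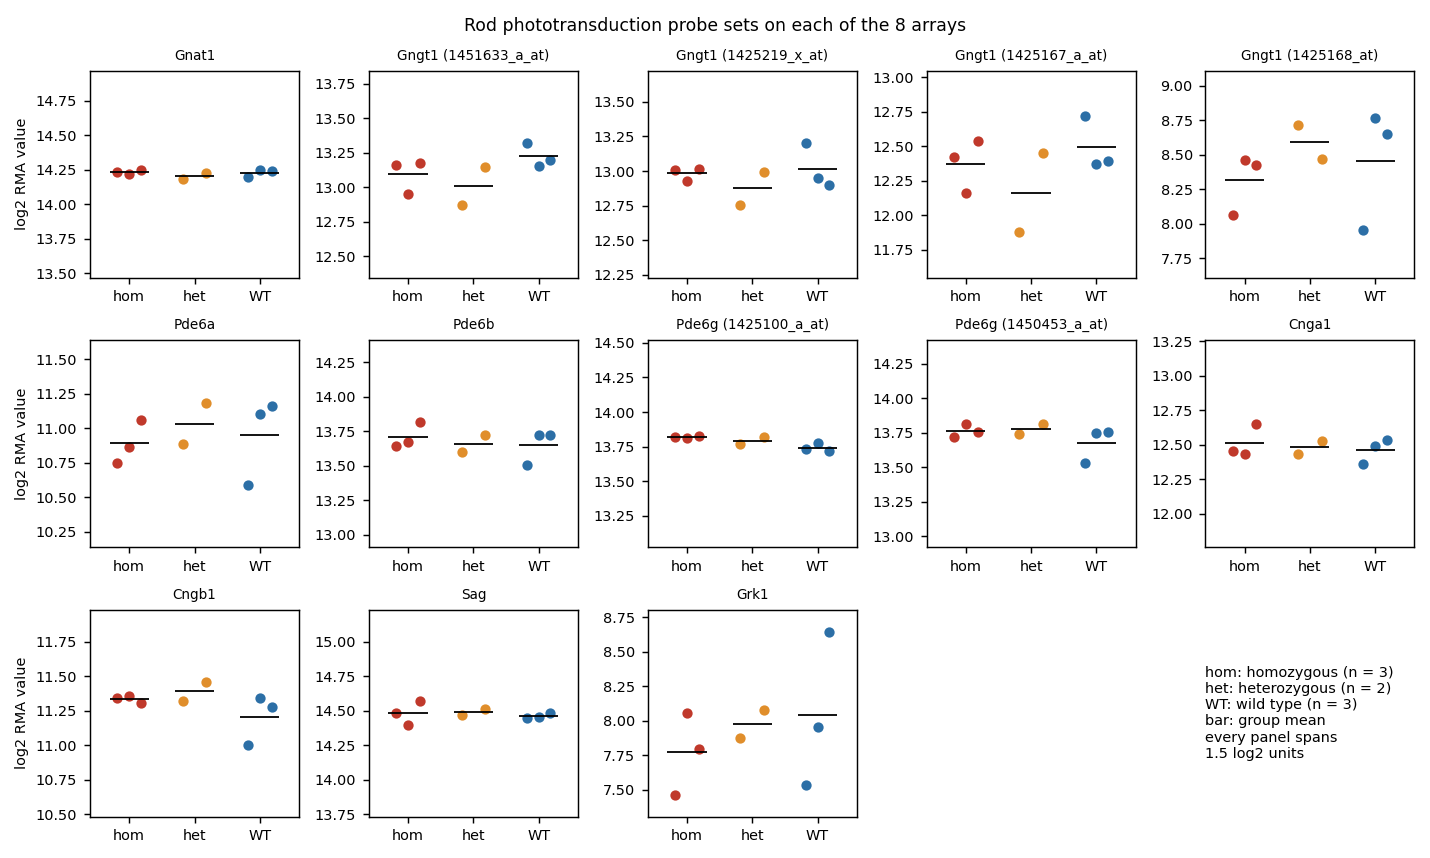
Log2 RMA values (y axis) of the 13 member probe sets on the arrays labelled homozygous (hom, n = 3), heterozygous (het, n = 2) and wild type (WT, n = 3). Points are arrays in the order of their label numbers, bars are group means and every panel spans 1.5 log2 units. Gnat1 stays within 0.0675 over the 8 arrays, while Grk1 spans 1.18.

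Setting homozygous against wild-type retina addresses the cascade's transcripts when, by label, both Nxnl1 alleles are null. Homozygous array 2, with Nxnl1 within the wild-type range, is part of this comparison unless stated. None of the 13 probe sets passed limma's test after Benjamini-Hochberg adjustment over all 45037 probe sets, where 0% of all probe sets passed, and the adjusted p of each was 0.9999. At an unadjusted p under 0.05, which 411 probe sets or 0.913% of all met, there was also 0 of 13, and the lowest unadjusted p of a member was 0.286 at Cngb1. These p-values and the intervals below rest on limma's moderated SE. For Gnat1 this SE (0.079) exceeded the SD over the 8 arrays (0.0244), as it did for the brighter Pde6g probe set (0.0792 against 0.0413). With 1 probe set a gene, 6 of 9 genes were above 0, where 60.5% of all named genes were. Their median log2 difference was 0.0225, beside 0.0244 over all named genes, and the values ran from -0.27 for Grk1 to 0.13 for Cngb1. The median size of the difference regardless of sign was 0.063 in the 9 genes and 0.067 in all named genes. With all arrays the 95% interval of each of the 9 genes left out a 2-fold change in either direction, but for Grk1 this depended on single arrays. The widest was that of Grk1, from 0.539-fold to 1.27-fold, and the narrowest were those of Gnat1 and the brighter Pde6g probe set, at 0.886-fold to 1.139-fold and 0.928-fold to 1.194-fold. The Grk1 interval reached down to 0.472-fold without wild-type array 1, 0.473-fold without wild-type array 2, 0.46-fold without homozygous array 2, 0.479-fold without homozygous array 3 and 0.429-fold without the pair of arrays that went against its label. The other 8 genes kept intervals inside a 2-fold change under these refits. With homozygous 2 and heterozygous 2 left out, the pair that went against its label, the median over the 9 genes was 0.066. Grk1 was then at -0.414 (SE 0.33) and the other 8 genes between -0.0559 and 0.115, with adjusted p values of at least 0.976.

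The comparison of heterozygous with wild-type retina asks for the effect of 1 null allele. Again 0 of 13 probe sets passed (0% of all), with a median over the 9 genes of 0.0196, beside -0.0067 over all named genes. Of the 9 genes 6 were above 0, where 47.6% of all named genes were, from -0.22 for Gngt1 to 0.18 for Cngb1. The other members lay between -0.0698 for Grk1 and 0.0805 for Pde6a. Without the pair of arrays that went against its label the median was -0.0433 and Gngt1 was at -0.356. These values rest on 1 heterozygous array, which has no spread of its own. Gngt1 was the member with the lowest unadjusted p, 0.126 at its brightest probe set (limma adjusted p 0.9999). Both heterozygous arrays were below all wild-type arrays at this 1 probe set, where 7.2% of all probe sets were separated downward and 7.03% upward. Markers of the pigment epithelium, the tissue that the dissection removes, were lower on the heterozygous arrays at 8 of 9 genes, with a median log2 difference of -0.55. Their summed log2 level was 71.9 to 72.2 on heterozygous arrays, 72.9 to 76.7 on homozygous arrays and 73.3 to 78.4 on wild-type arrays. For homozygous minus wild type 2 of the 9 were above 0, with a median log2 difference of -0.12. None of the 9 passed the adjusted threshold in either comparison. Markers of the lens, another tissue that a dissection can carry over, varied widely within each genotype, with mean log2 levels over 7 genes of 4.98 to 8.57 on homozygous, 5.29 to 7.61 on heterozygous and 5.18 to 7.51 on wild-type arrays. The part of either tissue in the values of the rod genes was not tested. For homozygous against heterozygous, which share an altered allele, 0 of 13 probe sets passed (0% of all), and the median over the 9 genes was 0.0244, beside 0.0346 over all named genes, and 0.0567 without that pair of arrays, which again leaves 1 heterozygous array. The genotype comparisons share arrays and are not independent of each other.

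**Figure D2:**
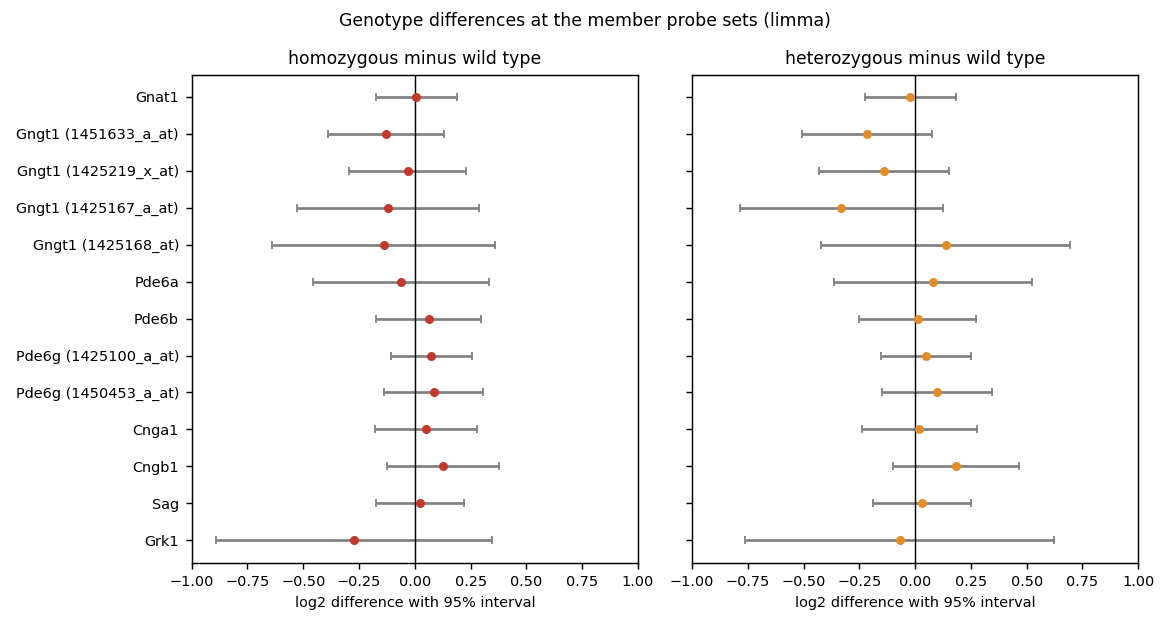
Log2 differences (x axis) of homozygous minus wild type (left) and heterozygous minus wild type (right) at the 13 member probe sets (y axis), from limma on 3, 2 and 3 arrays. Bars are 95% intervals without adjustment for the number of probe sets. Every interval includes 0, and Grk1 has the widest.

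The rod genes differed in how far their values ranged. The highest log2 value in the table was 14.57, and Sag, Gnat1, Pde6b and Pde6g had values near this upper end of the scale. The SD over the 8 arrays was 0.0244 for Gnat1, a spread that only 17 of 45037 probe sets fell below, 0.0413 for the brighter Pde6g probe set and 0.0505 for Sag. Bright probe sets had small spreads in general: the median SD was 0.0586 over the 33 brightest probe sets, a bin that holds Gnat1, Pde6b, Pde6g and Sag, 0.116 over the 331 between 12 and 13, and 0.179 over the 11093 between 7 and 9. Grk1, with an SD of 0.367, and the dimmest Gngt1 probe set, with 0.294, belong to this last range of levels and exceeded its median. Quantile normalization gives the probes of every array the same distribution, and the scanner's ceiling is not recorded in the values used here. How far either narrowed the differences of Sag, Gnat1, Pde6b and Pde6g was not tested.

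**Figure D3:**
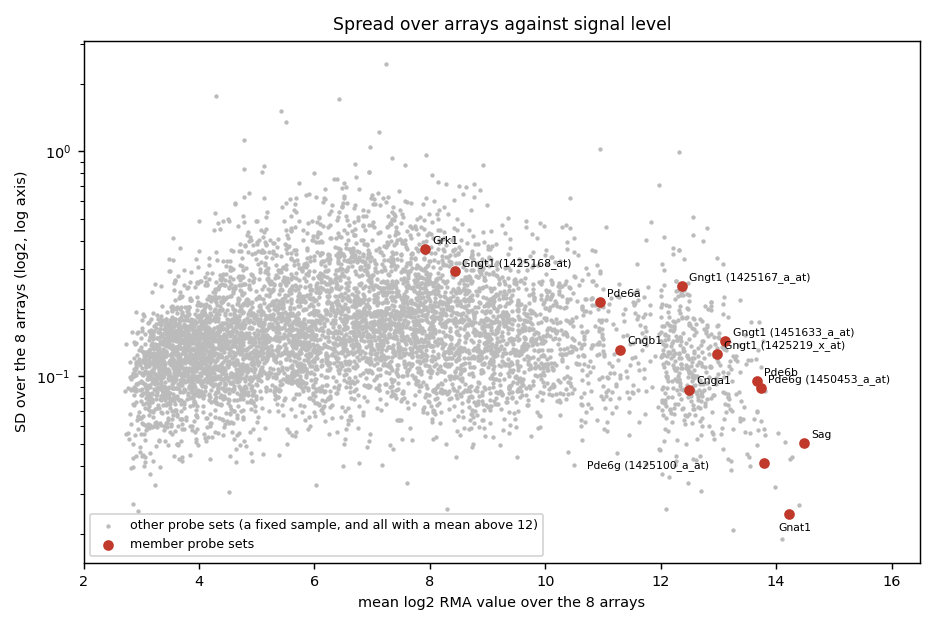
SD over the 8 arrays (y axis, log scale) against the mean log2 RMA value (x axis) for the 13 member probe sets (red) and for other probe sets (grey, a fixed random sample and all with a mean above 12). Gnat1, Sag and the brighter Pde6g probe set sit at the lower right, with SDs of 0.0244, 0.0505 and 0.0413, and Grk1 sits higher at 0.367.

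The members were also set against the RNA quality control. A slope against the beta-actin 5' minus 3' difference, fitted with limma beside the group terms, passed the adjusted threshold at 10.3% of all probe sets and at 1 of the 13 members, Grk1, a share no higher than that of all probe sets. The log2 value of Grk1 was higher by 0.767 (SE 0.16, limma adjusted p 0.0213) for each unit of the actin difference. In refits chosen after seeing the data, the call was lost without wild-type array 1, with a slope of 0.686 and an adjusted p of 0.171, and without homozygous array 2, with 0.917 and 0.0705. The calls over all probe sets depended on the same arrays, with 13 left without wild-type array 1 and 534 without homozygous array 2, against 4653 with all 8 arrays, so the loss is not particular to Grk1. The dimmest Gngt1 probe set had a slope of 0.541 (SE 0.16, limma adjusted p 0.0667) and Pde6a one of 0.37 (SE 0.15, limma adjusted p 0.15). The 3 brighter Gngt1 probe sets had slopes of -0.15, -0.17 and -0.25, none of which passed. Gnat1, Sag and the brighter Pde6g probe set were flat, with slopes of 0.0207, -0.0252 and 0.004. With the slope fitted without group terms, where 15.5% of all probe sets passed, or with the Gapdh control in place of actin, where 7.79% passed, the dimmest Gngt1 probe set passed as well as Grk1. With actin as a covariate the homozygous minus wild-type difference of Grk1 was -0.262 (SE 0.14, limma adjusted p 1), about as large as without it, while that of heterozygous minus wild type was -0.386 (SE 0.17, limma adjusted p 1), against -0.0698 without the covariate.

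**Figure D4:**
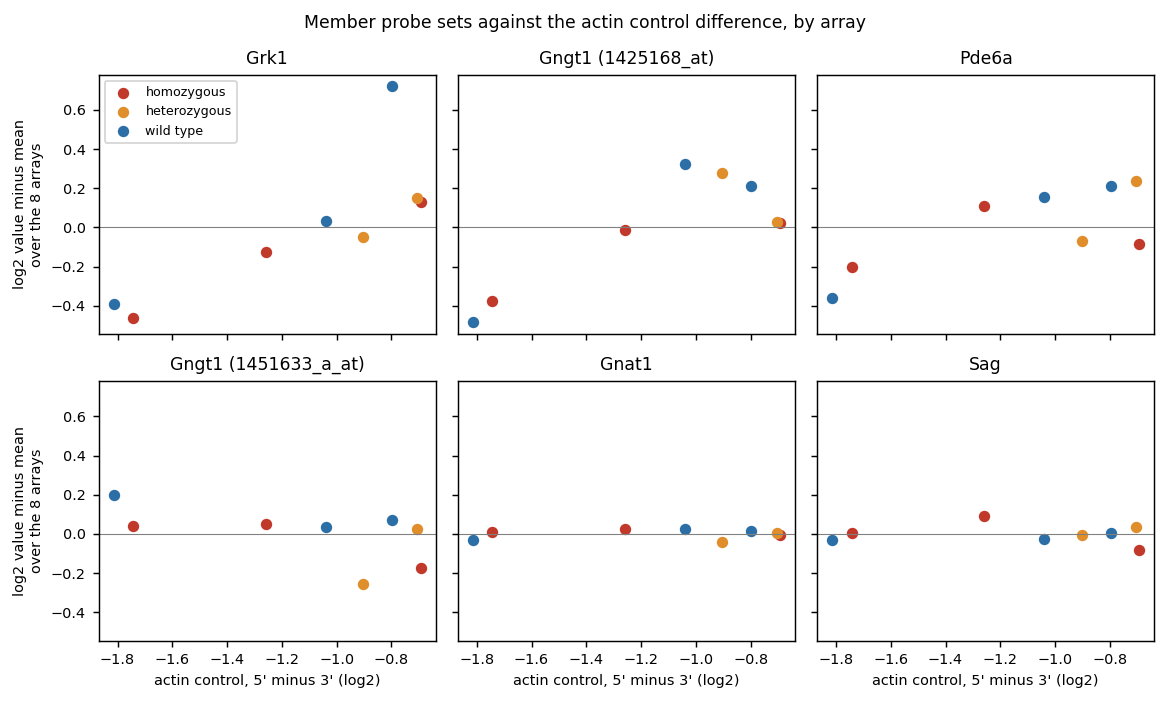
Log2 value of 6 member probe sets, each minus its own mean over the 8 arrays (y axis), against the 5' minus 3' difference of the beta-actin control probe sets (x axis, log2), with arrays coloured by genotype label. Grk1, the dimmest Gngt1 probe set and Pde6a are lowest on the arrays at the left, homozygous 1 and wild type 1, while Gnat1 and Sag stay near 0.

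The members were also compared with each other over the 8 arrays, with 1 probe set a gene. Of the 36 pairs 29 had a Pearson correlation above 0, with a median of 0.397, and these values describe points that share array, RNA and normalization. The closest pair was Pde6b and Cnga1, with r = 0.935 (Spearman rho 0.833), and r was 0.826 without the pair of arrays farthest from the median of Pde6b, homozygous array 3 and wild-type array 1. Pde6b also went with Gnat1 (r = 0.848, rho 0.857, and r of 0.701 without heterozygous array 1 and wild-type array 1) and with Pde6a (r = 0.828, rho 0.714, and r of 0.604 without homozygous array 1 and wild-type array 1). The most opposed pair was Gngt1 and Cngb1, with r = -0.509 (rho -0.738, and r of -0.972 without homozygous array 2 and heterozygous array 1). The sign of this pair depended on the Gngt1 probe set. The next 2 in brightness gave r = -0.582 and -0.467 with Cngb1. The dimmest gave r = 0.549 (rho 0.333, and r of -0.353 without homozygous array 1 and wild-type array 1). Gngt1 had a median correlation of -0.048 with the other 8 genes, where the rest ranged from 0.298 for Grk1 to 0.651 for Pde6a. The second Pde6g probe set had r = 0.939 with Cngb1 (rho 0.595), which was 0.163 without heterozygous array 2 and wild-type array 1, and r = 0.546 (rho 0.333) with the other Pde6g probe set.

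**Figure D5:**
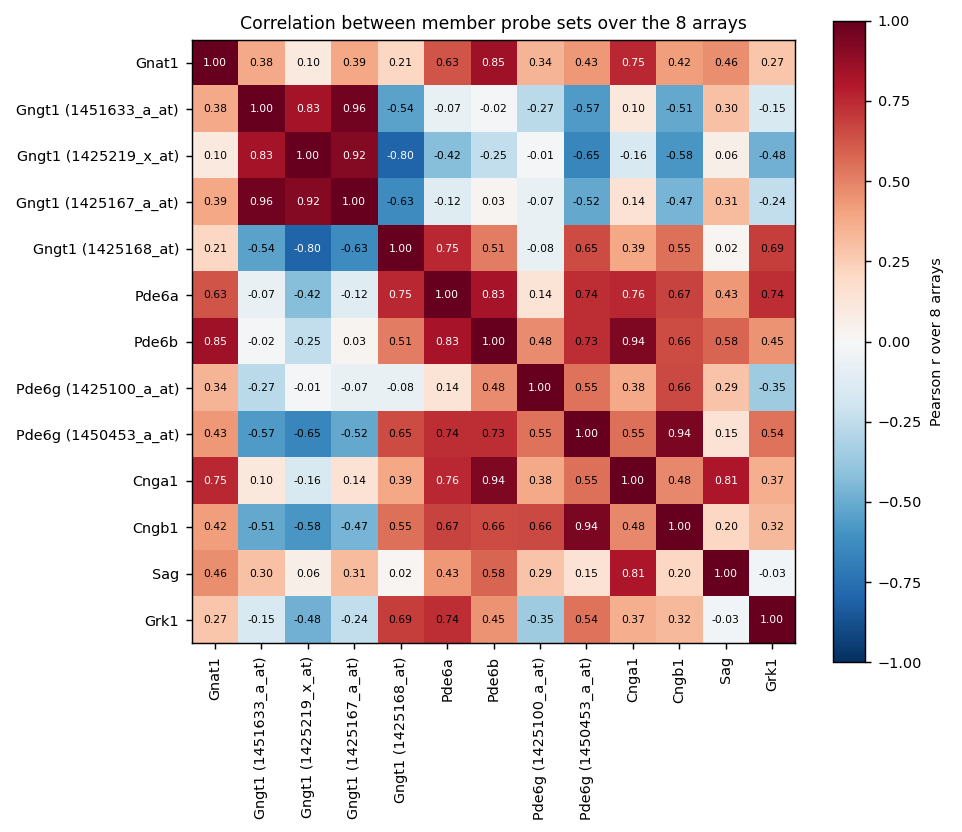
Pearson correlation over the 8 arrays between each pair of the 13 member probe sets, in colour and as numbers. The 3 brighter Gngt1 probe sets form a block of 0.83 to 0.96 and are negative against the dimmest Gngt1 probe set.

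The promoters of the closest and the most opposed pair are shown because these genes, at the brightest probe set of each, moved most and least alike over the arrays. The windows run from 250 bases before to 50 bases after the gene's start in RefSeq on GRCm38.p6, read 5' to 3' along the gene, and 6 of the 9 members had an entry. Pde6b is at chr5:108388123-108388422 on the plus strand, Cnga1 at chr5:72642703-72643002 on the minus strand, Gngt1 at chr6:3993758-3994057 on the plus strand and Cngb1 at chr8:95306536-95306835 on the minus strand. Capitals mark 2 short motifs, searched on both strands: TAATCC, a core recognised by the photoreceptor homeodomain factor Crx, and TGCTGA, a site type bound by the rod factor Nrl.
Pde6b: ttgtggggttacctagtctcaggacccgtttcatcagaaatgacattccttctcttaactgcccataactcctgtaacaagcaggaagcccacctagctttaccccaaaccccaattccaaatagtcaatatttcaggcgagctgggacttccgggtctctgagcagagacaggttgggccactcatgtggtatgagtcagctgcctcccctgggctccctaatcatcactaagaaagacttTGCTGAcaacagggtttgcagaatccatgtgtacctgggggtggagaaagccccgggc
Cnga1: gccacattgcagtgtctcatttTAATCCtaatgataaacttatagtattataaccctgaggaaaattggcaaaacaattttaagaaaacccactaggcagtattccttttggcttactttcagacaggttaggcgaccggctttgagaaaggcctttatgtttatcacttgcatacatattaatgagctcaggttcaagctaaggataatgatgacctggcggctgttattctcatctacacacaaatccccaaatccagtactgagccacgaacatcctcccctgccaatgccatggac
Gngt1: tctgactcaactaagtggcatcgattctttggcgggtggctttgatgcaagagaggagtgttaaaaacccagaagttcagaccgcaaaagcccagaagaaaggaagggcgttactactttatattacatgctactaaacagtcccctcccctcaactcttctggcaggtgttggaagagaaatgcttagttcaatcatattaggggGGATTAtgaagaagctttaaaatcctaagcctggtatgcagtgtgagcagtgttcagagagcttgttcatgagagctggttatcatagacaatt
Cngb1: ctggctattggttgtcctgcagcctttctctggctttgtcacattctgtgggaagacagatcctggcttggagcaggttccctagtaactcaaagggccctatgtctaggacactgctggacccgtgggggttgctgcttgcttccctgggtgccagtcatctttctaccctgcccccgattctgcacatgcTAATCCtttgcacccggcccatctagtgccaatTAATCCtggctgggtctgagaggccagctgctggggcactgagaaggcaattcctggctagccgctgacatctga
TAATCC occurred in 7.06% and TGCTGA in 19.5% of 32851 RefSeq promoter windows of the same length. Among the 6 members TAATCC was found in 4 (Gngt1, Cnga1, Cngb1 and Sag, with 2 copies in Cngb1) and TGCTGA in 3 (Pde6b, Sag and Grk1). The closest pair shared neither motif, and both genes of the most opposed pair held TAATCC, at -44 in Gngt1 and at -58 and -25 in Cngb1, counted in bases from the start.

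Among other genes with at least the median spread of all genes (SD 0.139), those whose values most resembled the mean of the 9 members over the 8 arrays were Thg1l (Pearson r = 0.936), Opalin (0.921), 4931406H21Rik (0.92), Stag3 (0.907) and Rdh11 (0.901). They are the highest of 9094 genes compared, picked by this correlation over only 8 arrays, so its size is no test of a link. Opalin and 4931406H21Rik were dim, with mean log2 levels of 5.17 and 5.48, where the array medians were 6.11 to 6.21. Thg1l was at 6.69, Stag3 at 7.31 and Rdh11 at 8.69. The mean of the members itself deviated by -0.0673, -0.0208 and 0.0567 on homozygous arrays, by -0.0602 and 0.0813 on heterozygous arrays, and by -0.139, 0.0349 and 0.115 on wild-type arrays. All homozygous and heterozygous arrays thus lay inside the wild-type range of this mean, which need not hold for each member. The lower end of that range was wild-type array 1 alone, the array with the lowest actin difference (-1.81). Homozygous arrays 1 and 2 and heterozygous array 1 lay below wild-type arrays 2 and 3. Values were centred but not scaled before averaging. Members of wide spread, such as Grk1 (SD 0.367) and Pde6a (SD 0.213), therefore weigh more in the mean than Gnat1 (SD 0.0244).

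Genes around the cascade were counted in 3 lists, with 0 genotype calls in each. Of the genes that regulate or assist rod phototransduction, 15 of 16 had a probe set, 10 were above 0 for homozygous against wild type with a median of 0.0155, and 0 passed in either direction. The members of smallest unadjusted p were Arl3, a small GTPase that releases lipid-anchored cargo, at 0.17 (SE 0.13), Pde6d, which carries such cargo, at -0.0985 (SE 0.11), and Gnb5, the partner of the transducin GTPase activator Rgs9, at 0.11 (SE 0.13). Of rod outer segment and rod regulatory genes 12 of 14 were measured, 5 were above 0 with a median of -0.0137, and 0 passed. The smallest p were those of the transcription factor Mef2c at 0.22 (SE 0.18), the retinol dehydrogenase Rdh12 at 0.11 (SE 0.10) and the disc rim protein Prph2 at -0.17 (SE 0.16). Prph2 read 13.41, 12.85 and 13.51 on homozygous arrays, 13.48 and 13.48 on heterozygous arrays, and 13.35, 13.43 and 13.49 on wild-type arrays, and homozygous array 2 was the lowest of the 8. Cone phototransduction genes, the counterpart in the other photoreceptor, had 7 of 11 measured members above 0 with a median of 0.05, and 0 passed. They were led by the short-wave opsin Opn1sw at 0.18 (SE 0.15), Gnb3 at 0.14 (SE 0.14) and Gnat2 at 0.067 (SE 0.089), the last 2 being the cone transducin beta and alpha subunits. With the actin slope, 1 of 15 regulators (Cabp4, a synaptic calcium-binding protein), 0 of 12 outer segment and regulatory genes and 2 of 11 cone genes (Pde6c and Arr3) passed, all higher with the actin difference, as 5.04% of all probe sets were. For heterozygous against wild type, 7 of 15 regulators, 5 of 12 outer segment and regulatory genes and 5 of 11 cone genes were above 0, beside the 47.6% of all named genes, and 0 passed in either direction.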

How the data were processed

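Total RNA from 8 retina samples was hybridised to Affymetrix 3' expression arrays, 1 array a sample. The deposited values are on a log2 scale. RMA is the method that the submitters' processing notes name, without a version or settings. RMA quantile-normalizes the arrays, so a change is relative to the bulk of transcripts. The number of arrays limits the precision. The 64 control probe sets were left out of the tests. Probe sets were named from the platform annotation, with symbols updated through gene identifiers for 34741 of 34945 with 1 symbol; 932 with several and 9160 with none stayed unnamed. Counts by gene used the brightest probe set of each gene, by its mean over the arrays.

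Group means of all 8 arrays were fitted in limma 3.58.1 (R 4.3.3) with 5 residual degrees of freedom. P-values are two-sided from eBayes, adjusted by Benjamini-Hochberg over 45037 probe sets at 0.05. The SE is the moderated one, which for probe sets of small spread is set largely by the spread shared over all probe sets. Member values without moderation are not given. All members were named, with up to 3 genes a list by smallest p and the 5 genes most alike in pattern. The members and lists were chosen with earlier results of these data known. The tests were tested on simulated data. Alternatives changed the normalization, filter, variance model, arrays, block and covariates.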

Additional observations from a re-analysis of the deposited data

How the results depend on the processing

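The alternatives were run on the brightest probe set of each of the 9 genes, and none of these was called in any genotype comparison. Their lowest limma adjusted p was 0.508. It does not cover the intensity trend, the robust prior and the ordinary test without moderation, for which member values were not kept. Under those settings only the calls over all probe sets were counted, and these were 0. Calls over all probe sets were 0 under every setting except without wild-type replicate 3, where 1 was called for homozygous and 1 for heterozygous against wild type. Leaving out each array in turn moved the median over the 9 genes between -0.0198 and 0.066 for homozygous minus wild type; -0.0433 and 0.0663 for heterozygous minus wild type; -0.0394 and 0.0496 for homozygous minus heterozygous. The medians moved by less than 0.102 in every setting, the pooled within-group SD between arrays of the mean of the 9 genes. This bar is loose, as it exceeds the main medians of 0.0225, 0.0196 and 0.0244 themselves. The medians changed sign in 3 of 19 settings for homozygous minus wild type, 7 of 19 for heterozygous minus wild type and 4 of 19 for homozygous minus heterozygous. Apart from leaving out single arrays, 213 of 243 member differences kept their sign or were 0 and 30 turned it, none of them past the threshold. For homozygous minus wild type these were, under a repeated quantile normalization Gnat1 -0.0403, Sag -0.0314; under array weights Cngb1 -0.000739. Others were, under leaving out both arrays of lowest actin difference Gnat1 -0.0094. For heterozygous minus wild type these were, under a repeated quantile normalization Pde6b -0.0121; under equal array medians Pde6b -0.0219, Cnga1 -0.0133, Sag -0.00361. Others were, under array weights Pde6a -0.0404, Pde6b -0.0484, Cnga1 -0.00213; under leaving out both arrays of lowest actin difference Pde6a -0.101, Pde6b -0.0621, Cnga1 -0.0307; under the replicate block Grk1 0.087; under leaving out the arrays labelled heterozygous 2 and homozygous 2 Pde6a -0.0703, Pde6b -0.0505, Cnga1 -0.0272; under the actin covariate Pde6a -0.0713, Pde6b -0.0452, Cnga1 -0.0136. For homozygous minus heterozygous these were, under equal array medians Sag 0.0375; under array weights Sag 0.0488. Others were, under the replicate block Cnga1 -0.023; under leaving out the arrays labelled heterozygous 2 and homozygous 2 Pde6a 0.0201, Cngb1 0.00432, Sag 0.0567; under the actin covariate Pde6a 0.0141, Cngb1 0.0177, Grk1 0.124. The cause was not tested. Where 1 heterozygous array is left, it is assumed to vary like the other groups. With 1 array left out, the genes that turned sign ranged, for homozygous minus wild type Gnat1 -0.00997 to 0.0168, Pde6a -0.244 to 0.0426, Pde6b -0.0117 to 0.0988, Cnga1 -0.0198 to 0.0885, Sag -0.0206 to 0.066, Grk1 -0.529 to 0.0268. They ranged, for heterozygous minus wild type Gnat1 -0.0433 to 0.000116, Pde6a -0.101 to 0.231, Pde6b -0.0621 to 0.0725, Cnga1 -0.0307 to 0.0663, Grk1 -0.326 to 0.23. They ranged, for homozygous minus heterozygous Gngt1 -0.0517 to 0.227, Pde6a -0.294 to 0.00771, Pde6b -0.0111 to 0.112, Pde6g -0.00185 to 0.0507, Cnga1 -0.0394 to 0.077, Cngb1 -0.127 to 0.0146, Sag -0.0498 to 0.0368. For the actin slope, 2 of 13 members passed without group terms or with the Gapdh control, and leaving out each array in turn, an alternative added after seeing the data, gave 0 to 1, where 13 to 4515 of all probe sets passed. No label says that replicate numbers pair the arrays: deviations of same-numbered arrays correlated between -0.248 and 0.616, and the replicate block left the calls at 0 and the medians over the 9 genes at 0.0225, 0.0566, -0.023 in the same order of comparisons. Depth does not apply to arrays, and signal over background could not be read, since no detection calls were used.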
